A study of Mus musculus with 32 samples.

Results

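The 7 genes described here belong to the oxidative stress response and were followed across sorted cells of the mouse olfactory mucosa: Srxn1, Txnrd1, Prdx1, Hmox1, Gclm, Gclc and Slc7a11. They were taken by name, as the probe sets annotated to exactly 1 of these 7 symbols, which gave 8 probe sets of the 35556 on the array. One probe set per gene was kept, the one with the highest mean over all 32 arrays, which gave 7 of the 19938 genes tested. Levels are log2 intensities, on which a difference of 1 is a doubling, and a level is compared between arrays for the same gene and not between genes.

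The cells came from adult S100a5-tauGFP mice, a reporter line in which GFP marks olfactory neurons according to their activity. S100a5, the gene named in the reporter, encodes a calcium-binding protein of olfactory neurons that is known to respond to stimulation. Mice of every group carried the reporter and were kept for 26 h in clean air, followed by 14 h in which an odorant or its vehicle was given as a 10 s pulse every 5 min. The mucosa was dissociated and its cells were sorted by GFP, and total RNA of each sort was hybridised to 1 array. The eugenol series held 4 arrays each of vehicle GFP-negative, vehicle GFP-positive, eugenol GFP-negative and eugenol GFP-positive cells, and the muscone series held the same 4 kinds with muscone. The labels give no number of mice per array and do not say whether arrays of a group came from separate mice, so p-values measure the spread between these arrays, which may be technical. In each series the 4 arrays whose titles carry the same code were treated as 1 experiment, numbered 1 to 4.

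Cells keep these genes under a shared switch. The repressor KEAP1 holds the transcription factor NRF2 (gene Nfe2l2) for destruction, oxidants and electrophiles modify KEAP1, and the stabilised NRF2 then binds antioxidant response elements beside its target genes, where BACH1 can act as a competing repressor. The targets divide by role: thioredoxin reductase 1 (Txnrd1) keeps thioredoxin reduced, peroxiredoxin 1 (Prdx1) removes hydrogen peroxide with it, and sulfiredoxin 1 (Srxn1) repairs peroxiredoxins that have been over-oxidised. Heme oxygenase 1 (Hmox1) breaks down heme, the catalytic (Gclc) and modifier (Gclm) subunits of glutamate-cysteine ligase carry out the rate-limiting step of glutathione synthesis, and Slc7a11 is the cystine importer that supplies its cysteine. The olfactory epithelium faces inhaled chemicals directly, and its neurons are replaced throughout life from basal progenitors.

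The RefSeq promoter table of GRCm38.p6 held 250 bases before to 50 bases after the annotated start for 5 of the 7 genes, in 7 windows, since Txnrd1 had 3 starts. Both strands were searched for the antioxidant response element core TGACNNNGC, for the form TGAGNNNGC, and for the AP-1 letters TGANTCA, which can overlap either core. Of all 32851 windows of that length, 12.4% held TGACNNNGC, 17.6% held TGAGNNNGC and 7.81% held TGANTCA. The upstream parts of Srxn1 (chr2:152105274-152105523, plus strand) and Slc7a11 (chr3:50443614-50443863, minus strand) are shown because these genes had the largest differences between the sorted fractions in opposite directions. Sequences run 5′ to 3′ on the strand of the gene, and capitals mark matches to any of the 3 motifs.
Srxn1: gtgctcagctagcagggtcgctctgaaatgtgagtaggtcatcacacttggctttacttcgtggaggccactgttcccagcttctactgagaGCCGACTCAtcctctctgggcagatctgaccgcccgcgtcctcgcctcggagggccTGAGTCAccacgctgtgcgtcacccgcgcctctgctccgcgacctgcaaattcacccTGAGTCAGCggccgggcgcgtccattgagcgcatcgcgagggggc
Slc7a11: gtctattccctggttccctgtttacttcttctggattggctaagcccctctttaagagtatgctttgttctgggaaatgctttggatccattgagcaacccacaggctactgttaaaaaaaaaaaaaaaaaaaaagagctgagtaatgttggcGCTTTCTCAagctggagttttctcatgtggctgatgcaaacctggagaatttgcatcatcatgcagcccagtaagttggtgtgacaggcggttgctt
Srxn1 held matches at 3 places of its upstream part, with first bases at -158, -102 and -45 from the start, of which the one at -45 carries TGAGNNNGC and TGANTCA in overlap and the one at -102 carries TGANTCA alone. Slc7a11 held 1 match, to TGAGNNNGC on the opposite strand at -97, and none to TGANTCA. The core matches of the other genes, and 1 that lies after the Srxn1 start, are given with 10 bases on each side, because they show how far the letters differ among genes that share the motif.
Srxn1 at 28 after the start, chr2:152105552-152105560: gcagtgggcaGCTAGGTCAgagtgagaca
Prdx1 at -133, chr4:116685466-116685474: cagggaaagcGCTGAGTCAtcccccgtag
Prdx1 at 15 after the start, chr4:116685614-116685622: acctcttcctGCGTTCTCAcggctctttc
Gclm at -134, chr3:122245423-122245431: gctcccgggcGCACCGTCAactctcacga
Txnrd1 at -92 of the second of its starts, chr10:82859114-82859122: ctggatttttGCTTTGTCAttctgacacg
All 5 of these are matches on the strand opposite to the gene. Prdx1 further held TGANTCA at -237 and at -131, the latter inside the core match at -133. These are matches of letters only, and the arrays carry no measure of factor binding.

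Some properties of the arrays bear on all values. Array medians ran from 6.72 to 8.81, with the lowest mean of an experiment in muscone 3 (6.78) and the highest in eugenol 2 (8.69). S100a5 itself was 0.43 higher in GFP-positive cells under vehicle (SE 0.15, limma adjusted p = 0.0171, higher in 8 of 8 experiments). It was not called on the vehicle arrays of the eugenol (adjusted p = 0.0568) or muscone series (0.187) alone, nor after muscone (0.17, adjusted p = 0.511), its mean was 11.41 in eugenol 1 and 4.86 to 7.43 in the other experiments, and 5 of 16 GFP-negative and 3 of 16 GFP-positive arrays were under 6.19, the 95th percentile of the vomeronasal receptor genes. That cut was the same for every array, although array medians differed, so these counts also follow how dim an array is. Omp, a gene that marks mature olfactory neurons, was higher by 0.27 (SE 0.07, adjusted p = 0.00114, 8 of 8). The labelled tissue was borne out by its markers: the mean of 12 mature neuron genes was 12.05 to 13.69 on GFP-positive arrays and 10.92 to 13.46 on GFP-negative arrays. Under vehicle, GFP-positive cells were higher in 12 of 12 mature neuron markers (median 0.53) and lower in 8 of 8 neutrophil (median -4.14), 9 of 9 macrophage (median -1.55), 5 of 5 pan-leukocyte (median -2.96) and 6 of 6 basal progenitor markers (median -2.56). The mean of the immature neuron list was also lower, at 10.49 against 11.50 in the eugenol and 10.03 against 11.51 in the muscone series. Lists of microvillous, B and erythroid cells were lower too. That of respiratory ciliated cells was higher, at 10.08 against 9.75 and 9.86 against 9.25. The mean of the neutrophil list was 7.09 to 10.00 on GFP-positive and 11.15 to 12.91 on GFP-negative arrays, so the GFP-negative sort is a mixture of neurons with other cells. The GFP-positive sort also carried signal of other cells. The mean of the sustentacular cell list was 9.79 to 12.43 on GFP-positive and 10.34 to 11.67 on GFP-negative arrays. That of the Bowman's gland list was 8.26 to 11.16 and 8.67 to 11.56. In such bulk samples, fewer cells of a type and less RNA per cell cannot be told apart, and the part of these other cells in the differences below was not tested.

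Between the sorted fractions under vehicle, 4 of the 7 genes were higher in GFP-positive cells, 2 were lower and 1 did not pass the test. Srxn1 was 1.82-fold higher, Txnrd1, Prdx1 and Hmox1 were 1.25- to 1.28-fold higher, Gclc was 1.45-fold lower and Slc7a11 was 2.08-fold lower as measured, while Gclm differed by 0.05 on the log2 scale. The comparison used all 8 experiments in a limma fit with the experiment as a block, and a gene was called at an adjusted p under 0.05 over all genes. In it 67.0% of all genes were called, 45.1% higher and 21.9% lower, with a median difference of 0.14 over all genes against 0.32 over these 7, so most genes of the array were called and 6 of 7 stood little above that share. The sign of the 3 smaller rises depends on the scale: with arrays centred on mature neuron genes, a scaling that puts the median of all genes at -0.39, Txnrd1 was at -0.19, Prdx1 at -0.17 and Hmox1 at -0.21. Centred on all probe sets or quantile normalized they stayed above 0, at 0.41 and 0.30, 0.44 and 0.34, and 0.40 and 0.27. Srxn1 shrank to 0.34 (adjusted p = 0.000792) centred on mature neuron genes and to 0.22 (0.00155) centred on odorant receptor genes, and Gclc and Slc7a11 stayed lower under every scaling tried. Without the experiment as a block, so that the spread between experiments entered the error, Slc7a11 alone of the 7 was called under vehicle.

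**Figure D1:**
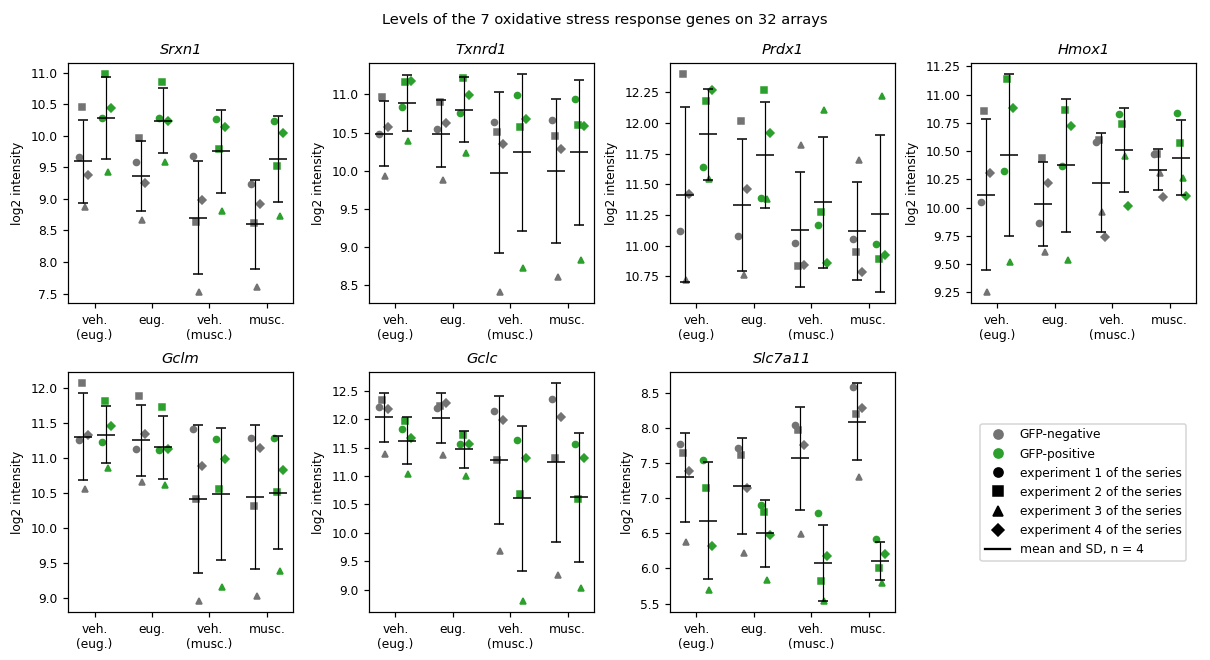
Log2 intensity of each of the 7 genes on all 32 arrays, by group (vehicle of the eugenol series, eugenol, vehicle of the muscone series, muscone), with GFP-negative arrays in grey and GFP-positive arrays in green, the experiment by marker shape, and the mean and SD of each group of 4 as bars. Srxn1 was higher in the GFP-positive array of every experiment, Gclc and Slc7a11 were lower, and the muscone 3 arrays (triangles) were the lowest of the muscone series for Gclc, with a lowest level of 8.79.

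Srxn1 had the largest rise. In the eugenol series its vehicle level was 9.66, 10.46, 8.88 and 9.38 in GFP-negative cells of experiments 1 to 4 and 10.29, 10.98, 9.42 and 10.44 in GFP-positive cells. The muscone series had 9.68, 8.64, 7.52 and 8.98 in GFP-negative and 10.27, 9.79, 8.81 and 10.14 in GFP-positive cells. The levels of both fractions overlapped across experiments, but the GFP-positive array was the higher one in all 8, by 0.52 to 1.29. The fitted difference was 0.87 (SE 0.07, adjusted p = 9.61e-10), with 0.69 in the eugenol series and 1.05 in the muscone series. After eugenol the difference was 0.88 (SE 0.10, adjusted p = 4.18e-07) and after muscone 1.03 (SE 0.10, adjusted p = 1.75e-08), again with the same sign in 4 of 4 experiments of each series. Srxn1 was not called when arrays were centred on odorant receptor genes in the eugenol series under vehicle (0.07, adjusted p = 0.424) or after muscone (0.09, 0.331), nor centred on mature neuron genes after muscone (0.20, 0.108); the adjusted p spanned 4.48e-07 to 1 over the alternatives of the former and 3.32e-09 to 0.331 over those of the latter comparison. The counts of all 7 genes in the comparisons within a series are read against the share of all genes called in the same direction. On the vehicle arrays of the eugenol series 4 of the 7 were higher (21.1% of all genes) and 2 lower (15.5%), 36.6% of all genes being called in either direction, and on those of the muscone series 3 were higher (41.5%) and 2 lower (20.6%), with 62.1% in either. After eugenol 4 were higher (28.3%) and 2 lower (18.3%), with 46.6% in either, and after muscone 2 were higher (35.1%) and 2 lower (21.5%), with 56.6% in either.

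Txnrd1, the reductase that recharges thioredoxin, was at 10.48, 10.96, 9.93 and 10.57 in vehicle GFP-negative cells of the eugenol series and at 10.84, 11.16, 10.39 and 11.17 in GFP-positive cells. Those of the muscone series were 10.64, 10.51, 8.41 and 10.35 against 10.99, 10.57, 8.73 and 10.68. GFP-positive cells were higher in all 8 experiments, with the smallest gap in muscone 2 (0.06) and the largest in eugenol 4 (0.60). The difference was 0.34 over all experiments (SE 0.05, adjusted p = 2.47e-06), 0.31 after eugenol (adjusted p = 0.000719) and 0.24 after muscone (adjusted p = 0.00482). Centred on mature neuron genes these became -0.19, -0.12 and -0.60.

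Prdx1, the peroxidase that works with thioredoxin and is repaired by sulfiredoxin, was less uniform. Its vehicle levels in the eugenol series were 11.12, 12.40, 10.72 and 11.42 in GFP-negative and 11.64, 12.18, 11.54 and 12.27 in GFP-positive cells, so that eugenol 2 ran the other way by -0.22. On the vehicle arrays of the muscone series they were 11.02, 10.83, 11.82 and 10.84 against 11.17, 11.27, 12.11 and 10.86. The difference was 0.36 over all 8 experiments (SE 0.09, adjusted p = 0.00112, higher in 7 of 8), 0.49 in the eugenol series (adjusted p = 0.00312) and 0.23 in the muscone series, where it did not pass the test (adjusted p = 0.111, 95% confidence interval -0.03 to 0.48). After eugenol it was 0.41 (adjusted p = 0.00947, 4 of 4), and after muscone 0.15 (adjusted p = 0.317, higher in 2 of 4). Centred on mature neuron genes, the difference over all experiments was -0.17. Within each experiment the vehicle log2 ratio of Srxn1 to Prdx1 was higher in GFP-positive cells by a mean of 0.51 ± 0.48 (SD, n = 8), in 7 of 8 experiments, and after odorant by 0.68 ± 0.28 (SD, n = 8), in 8 of 8.

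The identity of the Prdx1 signal carries a limit. The brighter of its 2 probe sets was used by the rule, yet all 7 named probe sets next to it in the numbering of the array belong to genes of chromosome 16, while Prdx1 lies on chromosome 4 (chr4:116685599-116700000 in GRCm38.p6). The other probe set, all 8 of whose named neighbours lie on chromosome 4, gave 0.35 (adjusted p = 0.00158) over all experiments and 0.30 (adjusted p = 0.0519) after eugenol, where the adjusted p of Prdx1 ran from 6.36e-05 to 1 over all alternatives. Over the 32 arrays, after subtraction of each experiment's mean, both probe sets had a Pearson correlation of 0.94.

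Hmox1, the heme-degrading enzyme, was at 10.05, 10.85, 9.25 and 10.31 in vehicle GFP-negative cells of the eugenol series and at 10.32, 11.14, 9.52 and 10.88 in GFP-positive cells. In the muscone series it was at 10.58, 10.60, 9.96 and 9.74 against 10.83, 10.74, 10.46 and 10.01. The gap had the same sign in all 8 experiments, from 0.14 in muscone 2 to 0.57 in eugenol 4, and was 0.32 over all of them (SE 0.08, adjusted p = 0.00118). After eugenol it was 0.35 (adjusted p = 0.0138, 3 of 4 experiments), which was lost without eugenol 1 (adjusted p = 0.0947) or eugenol 4 (0.0914), with adjusted p from 0.000251 to 1 over all alternatives. After muscone it was 0.11 and did not pass the test (SE 0.11, adjusted p = 0.408). In the vehicle arrays of the muscone series it was 0.29 (adjusted p = 0.0259), which did not pass without muscone 1 (0.0533), muscone 3 (0.14) or muscone 4 (0.0624), with 0.00423 to 0.972 over all alternatives. Centred on mature neuron genes the difference over all experiments was -0.21.

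The subunits of glutamate-cysteine ligase did not run together. Gclc, the catalytic subunit, was at 12.22, 12.34, 11.38 and 12.18 in vehicle GFP-negative cells of the eugenol series and at 11.82, 11.97, 11.03 and 11.66 in GFP-positive cells. The muscone experiments had 12.15, 11.28, 9.68 and 11.99 against 11.63, 10.69, 8.79 and 11.31. The GFP-positive array was lower in all 8 experiments, by -0.35 to -0.88, and the fitted difference was -0.54 (SE 0.06, adjusted p = 6.80e-08). It was -0.56 after eugenol (adjusted p = 1.26e-05) and -0.61 after muscone (adjusted p = 1.62e-06), lower in 4 of 4 experiments of each.

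Gclm, the modifier subunit, was at 11.25, 12.07, 10.55 and 11.33 in vehicle GFP-negative and at 11.23, 11.81, 10.85 and 11.45 in vehicle GFP-positive cells of the eugenol series. In the muscone series it was at 11.42, 10.41, 8.95 and 10.88 against 11.27, 10.55, 9.15 and 10.98. GFP-positive cells were higher in 5 of 8 experiments. The fitted difference was 0.05 with a 95% confidence interval of -0.08 to 0.19 (adjusted p = 0.483), which leaves out the size of the Gclc difference, and on the deposited scale no comparison of fractions called Gclm. Centred on mature neuron genes Gclm was lower and called, at -0.48 under vehicle (adjusted p = 3.25e-05), and centred on odorant receptor genes it was at -0.59 (1.36e-07). Within each experiment, the vehicle log2 ratio of Gclc to Gclm differed between GFP-positive and GFP-negative cells by a mean of -0.59 ± 0.30 (SD, n = 8), from -1.09 to -0.11, and below 0 in 8 of 8. After odorant that ratio differed by -0.57 ± 0.21 (SD, n = 8), again below 0 in 8 of 8.

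Slc7a11, the cystine importer, had the largest difference of the 7 genes. Its vehicle levels in the eugenol series were 7.78, 7.64, 6.38 and 7.39 in GFP-negative and 7.55, 7.15, 5.69 and 6.32 in GFP-positive cells. In the muscone series they were 8.05, 7.98, 6.49 and 7.76 against 6.79, 5.82, 5.53 and 6.18. The GFP-positive array was lower in all 8 experiments, by -0.23 in eugenol 1 to -2.16 in muscone 2. The fitted difference was -1.05 (SE 0.11, adjusted p = 3.99e-08), with -0.62 in the eugenol series (SE 0.16, adjusted p = 0.00343) and -1.49 in the muscone series (SE 0.16, adjusted p = 7.85e-08). This contrast between the series was 0.87 (SE 0.22), with a limma p of 0.000725 and an adjusted p of 0.152. On the deposited scale no gene of the 19938 was called in it, and 3104 had an unadjusted p under 0.05. Over the alternatives the Slc7a11 contrast ran from 0.65 to 1.26, with a lowest adjusted p of 0.00698, so its call depends on the processing.

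After the odorants, Slc7a11 was at 7.72, 7.62, 6.22 and 7.15 in GFP-negative and at 6.90, 6.80, 5.84 and 6.47 in GFP-positive cells of the eugenol arrays. On the muscone arrays it was at 8.58, 8.20, 7.31 and 8.29 in GFP-negative and at 6.42, 6.00, 5.79 and 6.20 in GFP-positive cells. Only after muscone, and only for this gene among the 7, did the levels of the fractions not overlap. The share of all genes whose levels did not overlap was not counted, so this does not set Slc7a11 apart from other genes. The difference after muscone was -2.00 (SE 0.16, adjusted p = 8.23e-10), 3.99-fold on the measured intensities, and without muscone 3 it was -2.15. After eugenol the difference was -0.68 (SE 0.16, adjusted p = 0.00129). The lower levels may lie close to what an unexpressed gene gives on these arrays. For Slc7a11, 7 of 16 GFP-positive and 0 of 16 GFP-negative arrays were under 6.19. This cut is the 95th percentile of the vomeronasal receptor genes, which the main olfactory epithelium is not known to use. It was the same for every array, although the median of those genes ran from 3.49 to 5.72 between arrays. Relative to the array median, the lowest Slc7a11 level was -1.20 in muscone 3, which had arrays under the cut. It was -1.75 in eugenol 2 and -1.48 in eugenol 1, which had none. The count therefore also follows how dim an array is. Where GFP-positive levels lie close to those of an unexpressed gene, the measured fold is a lower limit. This may hold for the vehicle and muscone differences. It may also hold for the one after eugenol, where Slc7a11 was at 5.84 in GFP-positive cells of eugenol 3. Levels under 6.19 occurred in GFP-positive cells of both series, so the contrast between the series may be too small or too large.

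**Figure D2:**
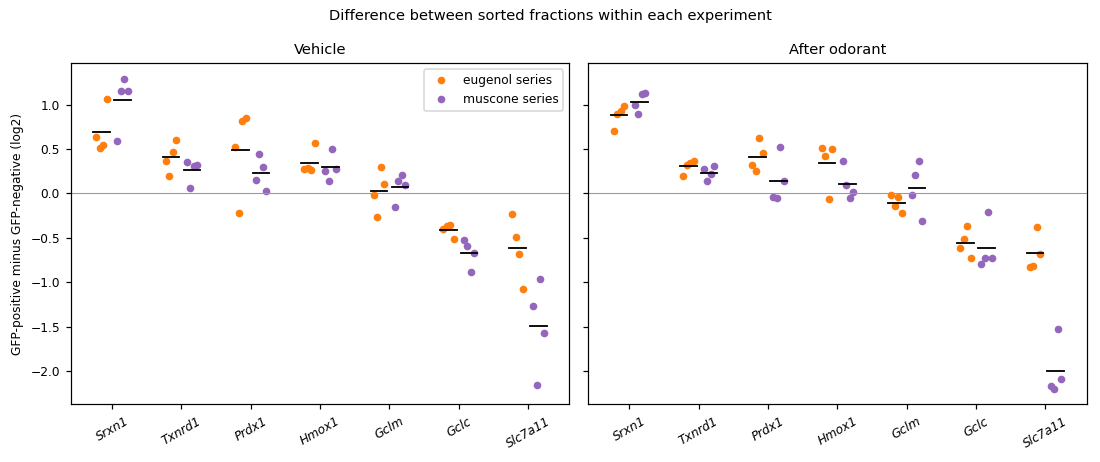
GFP-positive minus GFP-negative log2 intensity within each experiment, under vehicle (left) and after odorant (right), with 1 point per experiment, the series by colour, and the mean of 4 experiments as a line. Srxn1 lies above 0 and Gclc and Slc7a11 below 0 in every experiment, Slc7a11 reaches -2.20 after muscone, and the mean vehicle differences of Txnrd1, Prdx1 and Hmox1 over all 8 experiments, above 0 as drawn, were below 0 when arrays were centred on mature neuron or odorant receptor genes.

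The question of the odorants was whether a long exposure changed these genes in either fraction. None of the 7 was called for eugenol in GFP-positive cells (0% of all genes were called), for eugenol in GFP-negative cells (0%), for muscone in GFP-positive cells (0.00502%, 1 gene) or for muscone in GFP-negative cells (0%). At an unadjusted limma p under 0.05 there were 0, 1, 0 and 1 of the 7 in that order, against 923, 466, 746 and 1704 of all genes. The vehicle and odorant arrays used here are also those of the fraction differences given above, so both kinds of value share arrays.

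In GFP-positive cells, eugenol minus vehicle ran from -0.18 for Gclm (SE 0.09, adjusted p = 0.9995, lower in 4 of 4 experiments) to -0.04 for Srxn1, with all 7 below 0 and a median of -0.15 against -0.03 over all genes. The confidence intervals of the 7 genes spanned -0.50 to 0.17, so a doubling lies outside all of them. The other Prdx1 probe set gave -0.36 (unadjusted p = 0.00813, lower in 4 of 4). Muscone minus vehicle in GFP-positive cells ran from -0.12 for Srxn1 to 0.02, with intervals between -0.35 and 0.35.

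In GFP-negative cells, eugenol moved Srxn1 from 9.66, 10.46, 8.88 and 9.38 under vehicle to 9.58, 9.96, 8.66 and 9.25. All 4 experiments were lower after eugenol, by -0.23 in the fit (SE 0.10, unadjusted p = 0.0318, adjusted p = 0.9999), a difference that does not pass the test over all genes. The other 6 genes ran from -0.12 to 0.00.

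Muscone in GFP-negative cells gave the largest odorant value, for Slc7a11, whose vehicle levels of 8.05, 7.98, 6.49 and 7.76 stood against 8.58, 8.20, 7.31 and 8.29 after muscone. It was higher after muscone in 4 of 4 experiments, by 0.22 to 0.82, and by 0.53 in the fit (SE 0.16, unadjusted p = 0.0027, adjusted p = 0.346), which does not pass over all genes. Without muscone 3 it was 0.43, and centred on odorant receptor genes it was 0.81 and called (adjusted p = 0.00836; 0.00836 to 1 over all alternatives), in a scaling that called 10000 genes higher and put the median of all genes at 0.29. In the same contrast 8 of 8 neutrophil markers (median 0.35), 9 of 9 macrophage markers (median 0.35) and 5 of 5 pan-leukocyte markers (median 0.40) lay above 0. So did 6 of 6 endothelial (median 0.215), 4 of 4 B cell (0.16) and 4 of 4 erythroid markers (0.15). In contrast, 0 of 12 mature neuron markers (median -0.14) and 0 of 8 immature neuron markers (-0.18) lay above 0. The remaining lists were mixed. Above 0 lay 4 of 6 basal progenitor (median 0.20), 6 of 7 Bowman's gland (0.12), 4 of 5 fibroblast (0.11), 4 of 8 microvillous (0.06) and 3 of 5 ensheathing glia markers (0.04). So did 2 of 6 sustentacular (-0.13), 1 of 5 respiratory ciliated (-0.16) and 1 of 5 horizontal basal cell markers (-0.19). None of these markers was called, and their part in the Slc7a11 value was not tested. The other 6 genes ran from -0.10 to 0.12. In GFP-positive cells Slc7a11 differed by 0.02 (95% confidence interval -0.30 to 0.35).

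Whether the fractions differed in their response was tested by interaction. The change of the fraction difference called none of the 7 genes for eugenol (0% of all genes, 237 at an unadjusted p under 0.05) and none for muscone (0.00502%, 888). The largest was Slc7a11 with muscone, -0.51 (unadjusted p = 0.0316, adjusted p = 0.985). The eugenol effect against the muscone effect called none in GFP-negative cells (0%, 710 at an unadjusted p under 0.05), and none in GFP-positive cells (0.00502%, 1390).

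**Figure D3:**
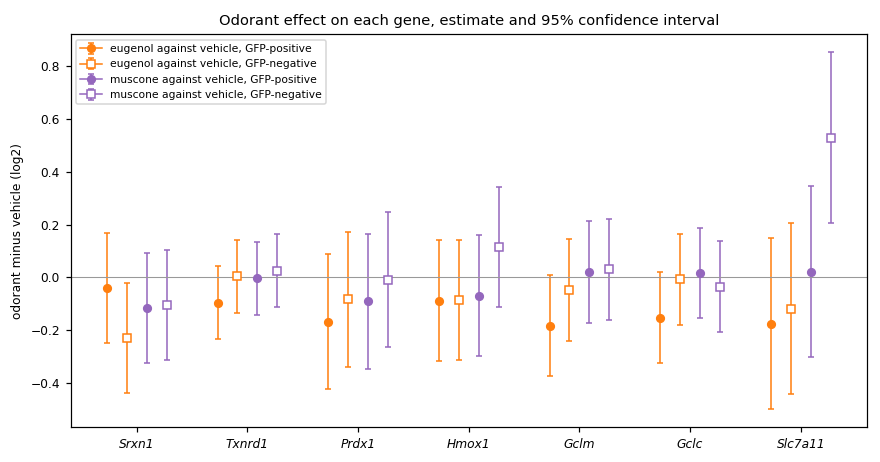
Odorant minus vehicle for each gene, as the limma estimate with its 95% confidence interval on the log2 scale, for eugenol (orange) and muscone (purple) in GFP-positive (filled) and GFP-negative (open) cells. Slc7a11 in GFP-negative cells after muscone (0.53) and Srxn1 in GFP-negative cells after eugenol (-0.23) are the values whose intervals leave out 0, and neither passed the adjustment over all genes.

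Levels were spread more widely between experiments than between odorant and vehicle. The mean of the 4 arrays of an experiment ran from 9.19 in muscone 3 to 12.07 in eugenol 2 for Gclc, from 9.13 to 11.87 for Gclm, from 8.64 to 11.06 for Txnrd1 and from 8.17 to 10.56 for Srxn1, with the same lowest and highest experiment for these 4 genes. Prdx1 ran from 10.85 in muscone 4 to 12.22 in eugenol 2, Hmox1 from 9.48 in eugenol 3 to 10.82 in eugenol 2, and Slc7a11 from 6.03 in eugenol 3 to 7.49 in eugenol 1. Muscone 3 was thus not the lowest experiment for every gene.

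Array medians moved with these levels, and subtracting them narrowed most ranges. Relative to the array median Srxn1 lay between 1.38 and 1.87 in all 8 experiments. Gclc lay between 2.40 (muscone 3) and 3.76 (muscone 1), and without muscone 3 its lowest was 3.38. Hmox1 and Prdx1 went the other way in muscone 3, where they reached their highest relative levels of 3.46 and 5.18, from lowest values of 1.75 and 2.86. The part of RNA quality or labelling in the muscone 3 arrays was not tested.

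**Figure D4:**
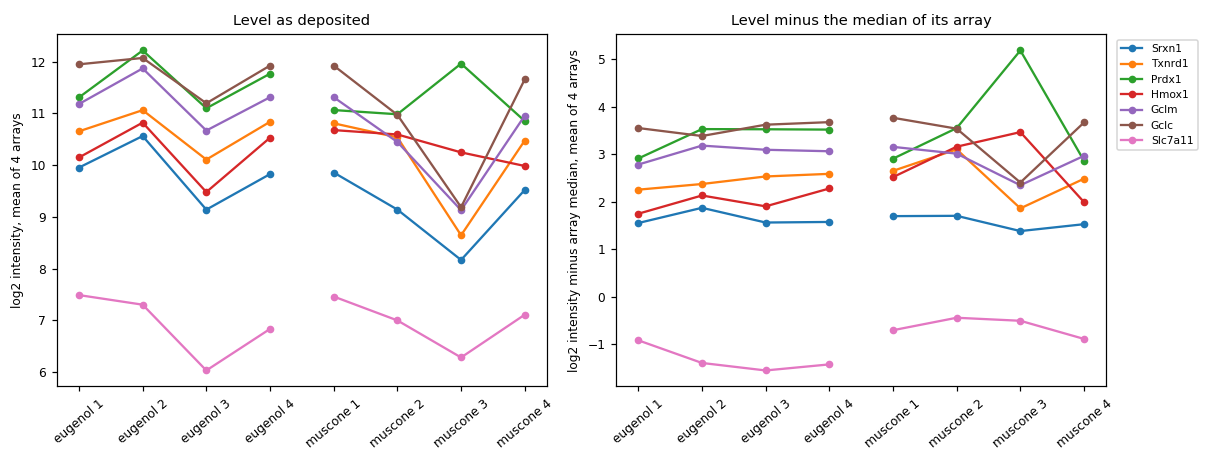
Mean level of each gene over the 4 arrays of each experiment, as deposited (left, log2 intensity) and after subtracting the median of each array (right, log2 difference); lines join experiments of a series for reading only, and levels are not comparable between genes. Gclc, Gclm, Txnrd1 and Srxn1 dip in muscone 3 on the left, while on the right Prdx1 (5.18) and Hmox1 (3.46) are at their highest there.

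The series themselves were compared on the vehicle arrays, with the experiment as the unit. None of the 7 genes was called (0.0401% of all genes were, 8 genes, and 1598 had an unadjusted p under 0.05). Eugenol minus muscone series was 0.89 for Gclc, 0.87 for Gclm, 0.71 for Srxn1, 0.58 for Txnrd1, 0.42 for Prdx1, 0.16 for Slc7a11 and -0.08 for Hmox1, with 1 common SE of 0.50 that limma gave to every gene, and with a median of 0.64 over all genes.

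In order of group means, Srxn1 ran from 8.60 ± 0.71 in muscone GFP-negative cells to 10.28 ± 0.64 in GFP-positive vehicle cells of the eugenol series (SD, n = 4). Slc7a11 ran from 6.08 ± 0.54 in GFP-positive vehicle cells of the muscone series to 8.10 ± 0.55 in muscone GFP-negative cells (SD, n = 4). Gclc ran from 10.61 ± 1.27 in GFP-positive vehicle cells of the muscone series to 12.03 ± 0.44 in GFP-negative vehicle cells of the eugenol series (SD, n = 4). For each of the 7 genes, neighbours in the order of its 8 group means differed by less than the larger of their SDs, which include the differences between experiments.

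Over the 32 arrays, after each experiment's mean was subtracted, the genes fell into sets that moved in opposite directions. These correlations share arrays and mostly follow the sort, and they are given as a description. Srxn1 ran with Txnrd1 (Pearson r = 0.86), Hmox1 (0.73) and Prdx1 (0.71) and against Gclc (-0.92) and Slc7a11 (-0.88). Gclc and Slc7a11 ran together (0.88), and Gclc and Gclm did not (-0.00). Over the GFP-positive arrays, Srxn1 with Gclc was at -0.13 and Srxn1 with Txnrd1 at -0.06, while Gclc with Slc7a11 was at 0.70 and Txnrd1 with Prdx1 at 0.62. The mean subtracted for these values was still that of both fractions of the experiment. They therefore also carry the fraction difference of each experiment and are not a measure within GFP-positive cells.

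The same measure against lists of cell type markers followed that division. Srxn1 had r = 0.96 with the mean of the mature neuron genes and -0.94 with that of the neutrophil genes. Slc7a11 had -0.87 with mature neuron genes, 0.92 with basal progenitor, 0.91 with macrophage, 0.91 with pan-leukocyte and 0.87 with neutrophil genes. It had similar values with microvillous (0.91), immature neuron (0.88), B cell (0.88) and endothelial genes (0.86), and 0.50 with sustentacular genes. Gclc had -0.86 with mature neuron, 0.96 with basal progenitor, 0.95 with immature neuron and 0.94 with neutrophil genes. These values therefore do not single out 1 cell type. Gclm had 0.25 with mature neuron and 0.01 with neutrophil genes.

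The genes most like each one by this correlation, out of all 19938, were Pcnx4, Zswim1 and Scn4b for Srxn1 (0.99 for each), and Ankrd46, Prrg4 and Poglut1 for Txnrd1 (0.95, 0.94 and 0.93). For Prdx1 they were Eola1, Serpinb6a and Atp5h (0.91, 0.91 and 0.90), and for Hmox1 Pfkp, Spryd3 and Ermp1 (0.86, 0.86 and 0.85). For Gclc they were Fasn, Olfr1447 and 4930523C07Rik (0.97 for each), and for Slc7a11 Socs3, Hcar2 and Nfkb2 (0.98, 0.97 and 0.97). Gclm had no gene above 0.75, the value of Tpm1, followed by Wwc2 (0.74) and Itm2b (0.70).

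The other genes of the pathway were measured for 107 symbols in 9 lists. Under vehicle the GFP-positive cells had 34 of the 107 at a higher and 42 at a lower level, which is 31.8% and 39.3% against 45.1% and 21.9% of all genes, the shares beside which the counts of each list below stand. Their median difference was -0.08 against 0.14 over all genes. None of the 107 was called in any of the 4 comparisons of odorant with vehicle. All differences of the lists below are on the deposited scale. Centring on mature neuron genes lowers every gene by the same amount here, and puts the median of all genes at -0.39. Txnrd1, Prdx1 and Hmox1, at 0.34, 0.36 and 0.32 as deposited, then fell below 0. The sign of a rise of that size or less in these lists therefore depends on the scale, and larger rises shrink by as much.

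Of 11 regulators of the pathway, 5 were higher and 2 lower, with a median of 0.10. On the deposited scale Nfe2l2, which encodes NRF2, was 0.52 higher (SE 0.07, adjusted p = 9.98e-07, 8 of 8 experiments), and its relative Nfe2l1 was 0.29 higher. Keap1, the repressor of NRF2, was 0.17 higher (adjusted p = 0.00257), while Bach1, which competes for the same elements, was -0.49 (adjusted p = 1.93e-05) and Sqstm1, the autophagy receptor that binds KEAP1, was -0.19.

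Around the thioredoxin arm, 6 of 15 genes were higher and 6 lower (median -0.10). The mitochondrial peroxidase Prdx3 was 0.60 and the endoplasmic reticulum peroxidase Prdx4 0.37 higher, whereas the methionine sulfoxide reductase Msrb1 was at -1.88 and Txnip, which binds thioredoxin, at -1.15. Of the 9 genes of NADPH supply 0 were higher and 8 lower (median -0.31), with the mitochondrial transhydrogenase Nnt at -1.83 and the isocitrate dehydrogenase Idh1 at -1.0. Of 5 genes that remove superoxide or hydrogen peroxide 4 were higher, among them Sod2 (0.28) and Sod3 (0.27), and catalase (Cat) was lower at -2.02.

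Around glutathione, 4 of 11 genes of synthesis and recycling were higher and 2 lower (median 0.04). Chac2, which degrades glutathione, was 0.61 higher and Glrx3 0.35 higher, while the glutaredoxin Glrx was at -2.30 and glutathione reductase (Gsr) at -0.61. Of 20 glutathione peroxidases and transferases 4 were higher and 10 lower (median -0.55), with Gstk1 at 0.41 and Gstz1 at 0.35 against Gpx1 at -2.47 and Gstp1 at -1.60. Of 12 genes of amino acid transport and the ATF4 response 3 were higher and 5 lower (median -0.08). Cbs, which makes cystathionine from homocysteine, was 0.52 and the kinase-like Trib3 0.39 higher, whereas the glutamine transporter Slc1a5 was at -2.18 and Cth, which releases cysteine from cystathionine, at -0.64.

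In detoxification of quinones and carbonyls 5 of 13 genes were higher and 2 lower (median 0.06). The quinone reductase Nqo1, a classical NRF2 target, was 0.54 higher and carbonyl reductase Cbr1 0.50 higher, and Aldh2 was at -1.36 and Nqo2 at -0.83. Of 11 genes of heme breakdown and iron handling 3 were higher and 6 lower (median -0.20). Hmox2, the constitutive heme oxygenase, was 0.32 and biliverdin reductase Blvra 0.23 higher, in the direction of Hmox1. The other biliverdin reductase of the list, Blvrb, was called in the opposite direction, at -1.01. The iron exporter Slc40a1 was at -1.62 and the ferritin light chain Ftl1 at -1.36.

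**Figure D5:**
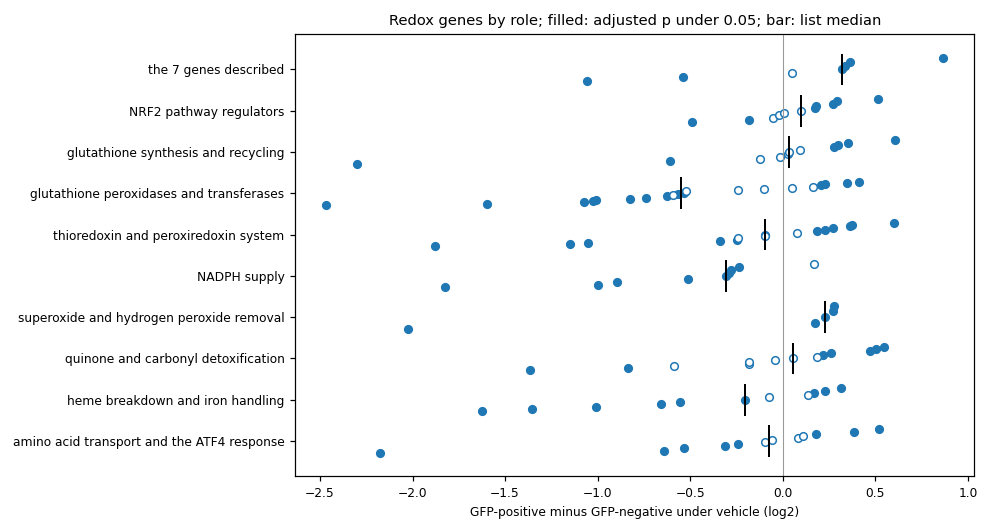
GFP-positive minus GFP-negative log2 difference under vehicle for the 7 genes and the 107 other genes of 9 lists, 1 point per gene, filled where the adjusted p was under 0.05, with a bar at the median of each list. Among the 9 lists of other genes, the median ran from -0.55 for glutathione peroxidases and transferases to 0.23 for removal of superoxide and hydrogen peroxide. NADPH supply had 8 filled points below 0 and none above. All positions are on the deposited scale, and centring on mature neuron genes moves the median of all genes from 0.14 to -0.39.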

How the data were processed

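Per the labels, RNA of sorted cells was hybridised to 32 Affymetrix arrays. The deposited values are log2 intensities per probe set that the authors made in Affymetrix Expression Console, per the submitters' processing notes; the sources used here give neither its version nor its background correction or normalization. They ran from 1.80 to 14.95 with 0 missing and were used as deposited. Of 35556 probe sets, 21789 had 1 gene symbol in GEO's platform annotation, 1621 several and 12146 none; the probe set with the highest mean stood for a gene, giving 19938 genes. The number of arrays limits the precision.

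One limma 3.58.1 fit (R 4.3.3) of 8 group means with the experiment as a block gave all comparisons, two-sided, with 18 residual and 21.7 total degrees of freedom and Benjamini-Hochberg adjustment over all genes; a call is an adjusted p under 0.05. The block was kept because the titles of the 4 arrays of an experiment share a code, and because deviations from group means correlated above 0.1 in 48 of 48 same-experiment pairs (median 0.66, against -0.21 over 144 other pairs). Subtracting the mean of 4 arrays itself pushes the other pairs below 0, so their value is not an independent contrast. The vehicle level of the series was fitted on 8 experiment means. The code was tested on simulated data.

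The 7 genes, the pathway and marker lists and the tests were chosen with earlier results of these data known. Named beside the 7 genes were Nfe2l2, Keap1, Bach1, Omp and S100a5, up to 2 called genes per direction with the largest vehicle difference in each pathway list, and the 3 genes with the highest correlation to each of the 7. Blvrb was named as well, as the other biliverdin reductase beside Blvra. Prdx5, Prdx6, G6pdx, Akr1b3 and Por had no probe set of their own symbol alone. Alternatives were other scalings, fits, probe sets and filters, and leaving out each experiment in turn.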

Additional observations from a re-analysis of the deposited data

Results flagged for a closer look

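In sets of 4 experiments of a series, 10 of 112 levels or differences stood apart by Dixon's test, where chance gives about 1 in 20. Gclc was low in eugenol 3 in GFP-negative cells, at 11.38 under vehicle and 11.37 after eugenol. Its fraction difference after odorant was smallest in muscone 3, at -0.21. Txnrd1 was low in muscone 3, at 8.41 in GFP-negative vehicle cells and 8.83 in GFP-positive muscone cells, and its vehicle fraction difference was smallest in muscone 2, at 0.06. Prdx1 was high in muscone 3 in GFP-positive muscone cells, at 12.22. Hmox1 had a large vehicle fraction difference in eugenol 4, 0.57, and one of the opposite sign after eugenol in eugenol 3, -0.07. The Slc7a11 fraction difference after muscone was smallest in muscone 3, at -1.52.

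In GFP-negative cells Slc7a11 was lower after eugenol and higher after muscone in every experiment of the respective series. The difference of the odorant effects was -0.65, with an unadjusted limma p of 0.00773 and an adjusted p of 0.9996. Of 21 tests of a difference between the series on the deposited scale, 0 passed the adjustment over all genes.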

How the results depend on the processing

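Without the replicate block, the fits called 1 of the 7 genes between fractions under vehicle (6 with the block), 0 in its eugenol series (6), 1 in its muscone series (5), 0 after eugenol (6) and 1 after muscone (4). Adjusted p under vehicle without the block was 0.124 for Srxn1, 0.808 for Gclc, 0.87 for Hmox1, 0.916 for Txnrd1 and 0.821 for Prdx1, and Slc7a11 was called at 0.0237. Leaving out 1 experiment gave 6 called under vehicle throughout, 3 (without eugenol 4) to 6 in the eugenol series, 4 to 6 in the muscone series, 5 to 6 after eugenol and 4 after muscone. Of all 19938 genes, 340 were called higher and 1328 lower under vehicle without the block. With 1 experiment left out, 7725 to 9071 were called higher and 4081 to 4378 lower. For the other comparisons the counts of all genes under these settings are not given, so the counts of the 7 genes cannot be read against them. Without eugenol 4, Hmox1 (adjusted p = 0.142), Prdx1 (0.0672) and Slc7a11 (0.0695) were not called in the eugenol series.

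Centring on mature neuron genes called 3 genes under vehicle in the eugenol series and 1 in the contrast of the vehicle differences of the series. Centring on odorant receptor genes called 4 for muscone in GFP-negative cells: Slc7a11 (0.81), Hmox1 (0.40), Gclm (0.31) and Txnrd1 (0.31), where 10000 of 19938 genes were called higher and the median of all genes was 0.29. All-gene counts under vehicle were 8990 higher and 4375 lower as deposited, 11680 and 3668 centred on all probe sets, 746 and 15683 centred on mature neuron genes, 605 and 18062 centred on odorant receptors, and 340 and 1328 without the block. The median of all genes was 0.14, 0.21, -0.39, -0.51 and 0.14 in that order.

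Signs turned as follows, with odorant receptor and then mature neuron centring. Under vehicle Gclm was -0.59 and -0.48, Hmox1 -0.32 and -0.21, Txnrd1 -0.31 and -0.19, and Prdx1 -0.28 and -0.17. In the muscone series they were -0.60 and -0.65, -0.38 and -0.43, -0.41 and -0.46, and -0.45 and -0.50. After muscone they were -0.88 and -0.77, -0.84 and -0.73, -0.71 and -0.60, and -0.80 and -0.69. After eugenol Hmox1 was -0.24 and -0.08, Txnrd1 -0.28 and -0.12, and Prdx1 -0.18 and -0.01. In the vehicle arrays of the eugenol series Gclm was -0.58 and -0.30, and with odorant receptor centring alone Hmox1 was -0.27, Txnrd1 -0.21 and Prdx1 -0.12. Gclm there was also -0.02 after quantile normalization and -0.06 without eugenol 3, and after muscone -0.03 with array weights and -0.04 without muscone 3. Leaving out 1 experiment, Gclm ran from -0.06 to 0.13 in the former and from -0.04 to 0.19 in the latter. The cause was not tested. Gclm was called in each of these centrings under vehicle, in the muscone series and after muscone. Srxn1, Gclc and Slc7a11 kept the sign of their fraction differences in all settings run, but Srxn1 shrank to as little as 0.07 in the eugenol series and 0.09 after muscone. Of 717 values of single genes under alternatives, 631 kept sign and call, 41 lost a call, 6 gained one and 39 changed sign. No alternative fit was run for the vehicle level of the series beyond scaling, probe set and left-out experiments, and fits within 1 series give no value across series.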
